A study of Rattus norvegicus with 40 samples.

Results

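Peroxisomal fatty acid oxidation in rat liver was followed through 9 genes: Phyh and Hacl1 of alpha-oxidation, Acox2, Ehhadh, Hsd17b4 and Acaa1a of beta-oxidation, the catalase gene Cat, the peroxisome division gene Pex11a and the nuclear receptor gene Ppara. They were chosen with earlier results of these data known, and all probe sets that carried such a gene symbol were taken. Of these 9 genes, 8 had at least 1 probe set annotated to them alone, out of 10411 genes so measured on the array. Acaa1a shared its probe set with its paralog Acaa1b, and that probe set is described on its own without being ascribed to either gene.

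Liver RNA was hybridised to Affymetrix RAE230A arrays, 1 array per rat, from male rats 10 to 12 weeks old. The sensitive collective was Line-C (LnC) with the Long-Evans (Turku/AB) strain (L-E), both with wildtype AHR, the receptor that binds dioxins. The resistant collective was Line-A (LnA) with the Han/Wistar (Kuopio) strain (H/W), whose AHR lacks a portion of the transactivation domain. Each of the 4 strains/lines had 4 rats killed 19 h after a single 100 µg/kg gavage of the dioxin TCDD and 4 rats killed 19 h after the corn oil vehicle, and L-E and H/W also had 4 TCDD rats each at 3 h, with no corn oil group at that time. A treatment group was housed together in a single cage, so cage and treatment cannot be told apart.

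Peroxisomes shorten very long and branched fatty acids that mitochondria handle poorly. Alpha-oxidation removes a single carbon from phytanic acid and related branched acids, in which phytanoyl-CoA hydroxylase (Phyh) makes the hydroxyacyl-CoA that hydroxyacyl-CoA lyase (Hacl1) then cleaves, and beta-oxidation proceeds through an acyl-CoA oxidase, a bifunctional enzyme and a thiolase. PPARA is the receptor for fatty acids and fibrates that switches on many of these genes in rodent liver, and catalase degrades the hydrogen peroxide that the oxidases release.

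The promoter windows of 3 genes with the clearest TCDD differences are shown so that the reader can see the sequence at each gene's start. They run from 250 bases before to 50 bases after the annotated start, on the gene's strand, in RefSeq build GRCr8. Capitals mark GCGTG, the core of the AHR response element, on either strand. Hacl1 lies at chr16:6869361-6869660 (minus strand), Phyh at chr17:78255596-78255895 (minus strand) and Ehhadh at chr11:92746159-92746458 (plus strand).
Hacl1: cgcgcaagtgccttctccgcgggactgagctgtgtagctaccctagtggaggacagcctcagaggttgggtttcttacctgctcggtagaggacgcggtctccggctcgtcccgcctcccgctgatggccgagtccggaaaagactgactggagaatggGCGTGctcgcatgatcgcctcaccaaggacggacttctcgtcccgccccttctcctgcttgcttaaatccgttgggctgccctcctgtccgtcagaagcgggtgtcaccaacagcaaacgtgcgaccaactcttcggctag
Phyh: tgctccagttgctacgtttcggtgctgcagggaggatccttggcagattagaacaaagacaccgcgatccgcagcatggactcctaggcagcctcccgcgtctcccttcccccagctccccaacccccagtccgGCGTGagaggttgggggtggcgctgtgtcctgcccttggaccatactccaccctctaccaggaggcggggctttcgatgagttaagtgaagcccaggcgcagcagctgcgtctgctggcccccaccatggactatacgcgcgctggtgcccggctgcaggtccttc
Ehhadh: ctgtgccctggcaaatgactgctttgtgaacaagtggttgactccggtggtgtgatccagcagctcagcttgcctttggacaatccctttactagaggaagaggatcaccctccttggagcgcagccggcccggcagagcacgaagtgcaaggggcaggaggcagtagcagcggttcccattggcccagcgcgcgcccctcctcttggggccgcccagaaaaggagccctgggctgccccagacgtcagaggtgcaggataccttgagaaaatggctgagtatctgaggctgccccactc
Hacl1 held 1 copy of GCGTG at position -91 and Phyh 1 at -116, counted from the gene's start, whereas the Ehhadh window held none. GCGTG was present in 6 of the 9 members' windows and in 29.7% of the 33469 promoter windows of the same length. The direct repeat bound by PPARA with its partner RXR (AGGNCANAGGNCA, both strands) was in 0 of the 9 windows and in 0.415% of all windows. A match is a description of these letters, not of binding.

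Before the members, the dosing itself was checked. Of 6 dioxin-inducible genes (Cyp1a1, Cyp1a2, Cyp1b1, Nqo1, Tiparp, Aldh3a1), 6 were higher after TCDD at an adjusted p under 0.01 (limma, Benjamini-Hochberg) in L-E, LnC and LnA, and 5 in H/W, where Cyp1a1 had a log2 difference of 10.47 with an adjusted p of 0.0142. Hepatocyte markers (9 genes) had a mean log2 signal between 13.82 and 14.31 in all 40 arrays, and both measured fat markers lay below the median signal of the arrays. The lowest hepatocyte mean was in the H/W corn oil group (13.82 to 14.18), and the other groups lay between 14.07 and 14.31. Of 33 measured markers of hepatocytes, bile duct, stellate, endothelial, immune, red blood and fat cells, 0 passed the threshold in limma's test in each strain/line. At an unadjusted p under 0.05 there were 7 of 33 in L-E and 3 in each of the others. The share of all genes with such a p was 18.9% in L-E and 12.1% to 14.9% in the others. In L-E the mean log2 signal of the 6 stellate markers was 4.67 to 5.33 in TCDD rats and 4.35 to 4.69 in corn oil rats. For H/W the mean of the 5 immune markers was 6.28 to 6.49 in TCDD rats and 6.58 to 6.75 in corn oil rats, and the mean of the 3 red blood cell markers 6.96 to 7.27 against 7.14 to 7.60. The mean of the 4 bile duct markers in H/W was 3.28 to 3.44 against 3.48 to 3.55, with 3 of the 4 below the array medians. In LnC the stellate mean was 5.10 to 5.37 against 4.80 to 5.21. The immune mean in L-E went the other way from H/W, at 6.76 to 7.32 against 6.70 to 7.02. The part of these shifts in the results below was not tested. In whole liver, fewer cells of a type and less RNA per cell cannot be told apart.

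TCDD at 19 h was associated with lower Hacl1 and higher Phyh in every strain/line, the consecutive enzymes of alpha-oxidation, with log2 differences of -1.41 to -1.84 and 0.60 to 0.87. Ehhadh was lower by log2 differences of -0.83 to -1.50, and Acox2 was higher by 0.21 to 1.01. The brighter of 2 Pex11a probe sets was lower by -0.57 to -1.24, whereas the dimmer had differences from -0.86 in L-E to 0.08 in LnC. At an adjusted p under 0.01 within a strain/line, the calls were Hacl1 in LnA and H/W and Phyh in LnA. All values here are log2 signals per probe set, on which a difference of 1 is a doubling, and each difference is TCDD minus corn oil unless stated.

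**Figure D1:**
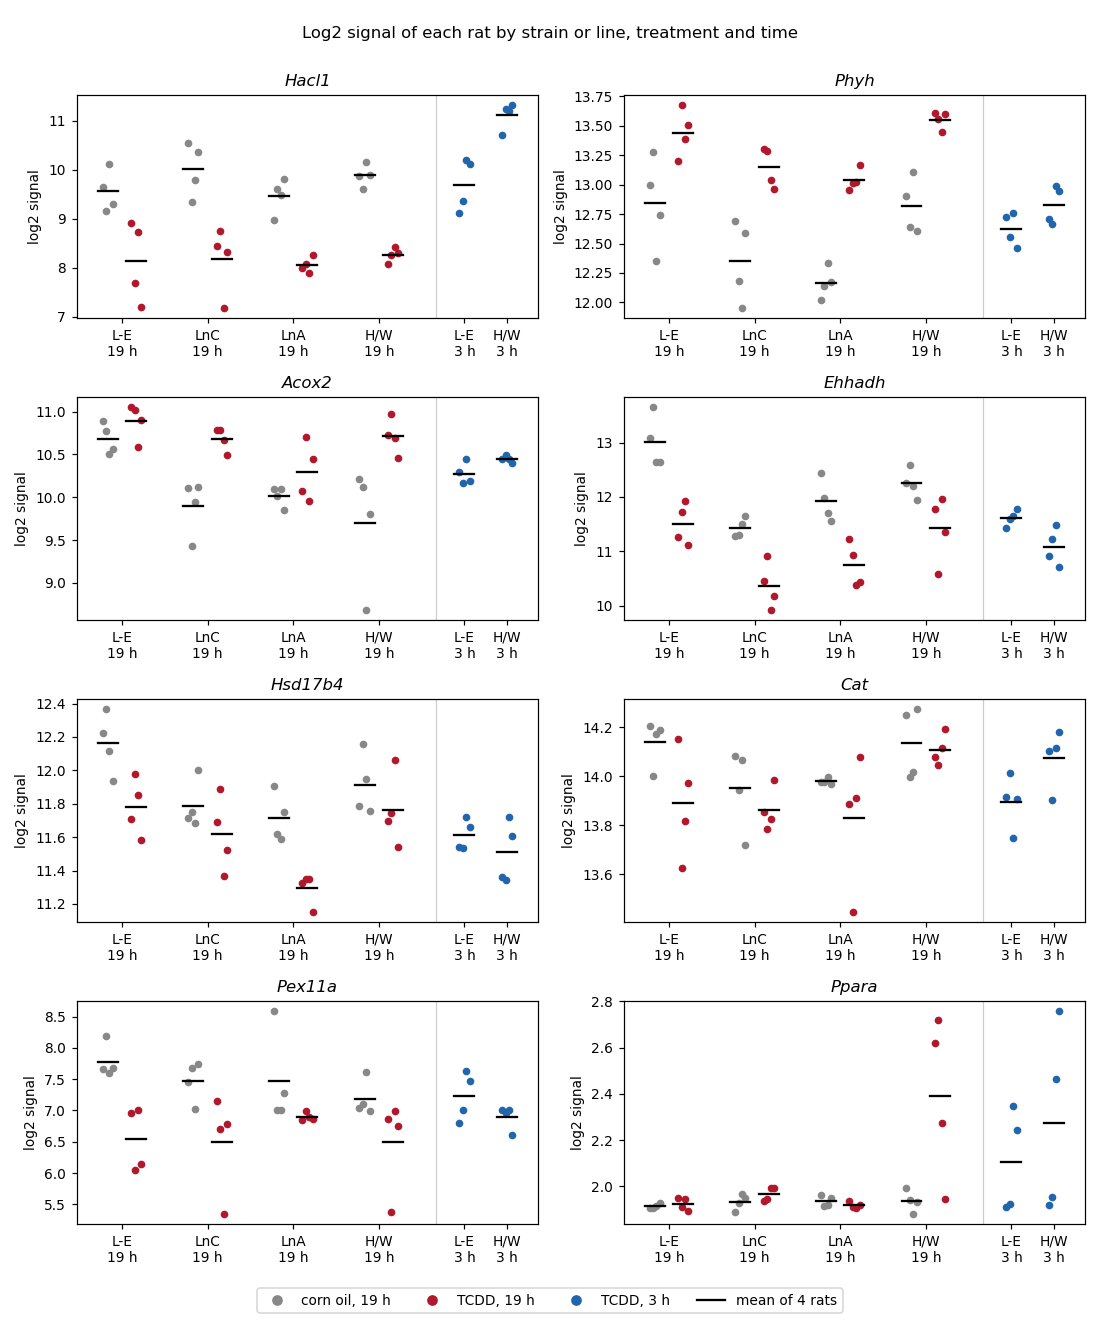
Log2 signal (vertical axes) of 8 genes in each rat, by strain or line, treatment and time (horizontal axes). Points are single rats and bars the means of 4 rats. All 4 TCDD rats at 19 h lie below all 4 corn oil rats for Hacl1 in each strain/line, and Ppara lies near 2 in most rats.

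Hacl1 cleaves the hydroxylated branched acyl-CoA. In L-E the 4 corn oil rats measured 9.66, 9.16, 10.12 and 9.30 and the 4 TCDD rats 8.91, 7.69, 8.73 and 7.20. In LnC the corn oil rats measured 10.55, 9.34, 9.80 and 10.37 and the TCDD rats 8.44, 8.75, 7.18 and 8.32. Every TCDD rat of these sensitive rats lay below every corn oil rat. The SD of the TCDD rats was 0.82 in L-E and 0.69 in LnC, beside 0.43 and 0.55 in their corn oil rats. In LnA the corn oil rats measured 8.98, 9.61, 9.48 and 9.81 and the TCDD rats 8.00, 8.08, 7.90 and 8.25. H/W corn oil rats measured 9.88, 9.62, 10.16 and 9.90 and the TCDD rats 8.08, 8.27, 8.42 and 8.29. The resistant TCDD rats were tightly grouped, with an SD of 0.15 in LnA and 0.14 in H/W, again without overlap with their controls. The SD of those controls was 0.36 in LnA and 0.22 in H/W.

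Hacl1 fell in both resistant groups, with a difference of -1.63 in H/W (SE 0.12, adjusted p = 0.00135) and -1.41 in LnA (SE 0.17, adjusted p = 0.00774). The sensitive rats had differences of -1.84 in LnC (SE 0.40, adjusted p = 0.0561) and -1.43 in L-E (SE 0.43, adjusted p = 0.111), with larger errors that kept them from passing in these fits within a strain/line. The LnA call lay close to the threshold. It was lost in the paired fit with a replicate block (adjusted p = 0.0231), with the fluidics station of the array washer as a block (difference -1.22, adjusted p = 0.132), with quantile normalization (adjusted p = 0.0128), with median centring (adjusted p = 0.0119) and in a single fit over the 8 groups at 19 h (adjusted p = 0.0117). In that single fit Hacl1 passed in both sensitive groups (adjusted p = 0.000594 in LnC and 0.00453 in L-E). The LnA call was also lost on leaving out any of 7 of the 8 LnA rats (adjusted p = 0.0159 to 0.0305). The exception was corn oil replicate 1 (adjusted p = 0.00191). LnA and LnC corn oil arrays were all washed on station 1, as was 1 TCDD rat of each, which lay below the corn oil mean by a difference of -1.22 in LnA and -1.69 in LnC. The H/W call was lost with scan day as a block (adjusted p = 0.0146), although the difference was -1.80, -1.54 and -1.61 within its 3 scan days. In L-E the difference was -0.75 and -1.65 within its 2 scan days, and station and treatment cannot be told apart.

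Phyh adds the hydroxyl group in the preceding step. In L-E the corn oil rats measured 12.99, 13.28, 12.35 and 12.74 and the TCDD rats 13.20, 13.68, 13.39 and 13.51. In LnC the corn oil rats measured 12.69, 12.18, 11.95 and 12.59 and the TCDD rats 13.31, 13.29, 13.04 and 12.96. The L-E groups overlapped because corn oil replicate 2 was above TCDD replicate 1, whereas the LnC groups did not overlap. In LnA the corn oil rats measured 12.02, 12.14, 12.33 and 12.18 and the TCDD rats 12.96, 13.01, 13.03 and 13.17. H/W corn oil rats measured 12.91, 12.64, 13.11 and 12.61 and the TCDD rats 13.61, 13.56, 13.45 and 13.60. Neither of the resistant pairs of groups overlapped.

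Phyh rose in LnA, by 0.87 (SE 0.07, adjusted p = 0.00197). H/W had a difference of 0.74 (SE 0.11, adjusted p = 0.0246), LnC of 0.80 (SE 0.18, adjusted p = 0.0613) and L-E of 0.60 (SE 0.20, adjusted p = 0.156). The LnA call was lost with the replicate block (adjusted p = 0.0140) and with fluidics station as a block (adjusted p = 0.0218). In the single fit over the 8 groups Phyh also passed in LnC (adjusted p = 0.00209) and H/W (adjusted p = 0.00597). Within scan days the Phyh difference was 0.20 and 0.73 in L-E and 0.70, 0.63 and 0.99 in H/W, so it was positive in each.

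Ehhadh, the L-bifunctional enzyme of beta-oxidation and a well-known PPARA target, had its highest signals in the L-E corn oil rats. These measured 13.09, 13.65, 12.64 and 12.65 and the TCDD rats 11.26, 11.72, 11.94 and 11.12. In LnC the corn oil rats measured 11.29, 11.31, 11.50 and 11.65 and the TCDD rats 10.46, 10.92, 9.92 and 10.18. Neither of these pairs of groups overlapped. In LnA the corn oil rats measured 12.44, 11.98, 11.71 and 11.56 and the TCDD rats 11.24, 10.93, 10.39 and 10.44. H/W corn oil rats measured 12.26, 12.59, 12.21 and 11.94 and the TCDD rats 11.79, 10.59, 11.97 and 11.36. The LnA groups were apart and the H/W groups overlapped in TCDD replicate 3. The L-E difference was -1.50 (SE 0.28, adjusted p = 0.0252), that of LnC -1.07 (SE 0.21, adjusted p = 0.0408), that of LnA -1.17 (SE 0.25, adjusted p = 0.0544, and 0.0101 in the paired fit) and that of H/W -0.83 (SE 0.30, adjusted p = 0.313). None passed 0.01 in these fits, although L-E did in the single fit over the 8 groups (adjusted p = 0.000627). The H/W difference was -0.47, -1.12 and -0.58 within its scan days and -0.55 without TCDD replicate 2.

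Acox2, the oxidase for bile acid side chains, measured 10.11, 9.43, 9.94 and 10.12 in LnC corn oil rats and 10.78, 10.79, 10.66 and 10.49 in LnC TCDD rats. In H/W the corn oil rats measured 10.22, 10.11, 8.68 and 9.80 and the TCDD rats 10.72, 10.97, 10.70 and 10.46. The groups were apart in these strains/lines, with H/W corn oil replicate 3 far below the others. The differences were 0.78 in LnC (SE 0.16, adjusted p = 0.0472) and 1.01 in H/W (SE 0.33, adjusted p = 0.250), the latter 0.67 without that replicate, which was also the H/W array on the other fluidics station. In L-E and LnA the groups overlapped and the 95% intervals were -0.09 to 0.51 and -0.10 to 0.66.

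Hsd17b4, the D-bifunctional protein that acts on branched substrates, had log2 levels between 11.15 and 12.37 in all 40 arrays. In LnA the corn oil rats measured 11.91, 11.62, 11.59 and 11.75 and the TCDD rats 11.33, 11.35, 11.35 and 11.15, with no overlap. That difference was -0.42 (SE 0.08, adjusted p = 0.0370, and 0.109 in the paired fit), and the differences in the other strains/lines were -0.38 in L-E, -0.17 in LnC and -0.15 in H/W (adjusted p at least 0.115). Cat was bright and nearly level: its log2 signal lay between 13.45 and 14.27 in all arrays, and its TCDD minus corn oil difference was -0.03 in H/W, -0.15 in LnA, -0.09 in LnC and -0.25 in L-E, with overlapping groups in each. The probe set shared by Acaa1b and Acaa1a, the thiolases that close the cycle, went the other way from Ehhadh. It measured 11.51, 11.82, 11.58 and 11.51 in L-E corn oil rats and 12.17, 12.35, 12.59 and 12.00 in L-E TCDD rats. With adjustment over all probe sets, its TCDD minus corn oil difference was 0.55 in H/W (adjusted p = 0.0856), 0.56 in LnA (adjusted p = 0.0660), 0.67 in LnC (adjusted p = 0.0186) and 0.67 in L-E (adjusted p = 0.0361).

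Pex11a, which promotes the division of peroxisomes and is another PPARA target, had 2 probe sets. With the brighter probe set, the L-E corn oil rats measured 7.67, 8.19, 7.60 and 7.67 and the L-E TCDD rats 6.96, 6.04, 7.01 and 6.14, without overlap. The L-E difference was -1.24 (SE 0.27, adjusted p = 0.0412), the LnC difference -0.98 (adjusted p = 0.291), the LnA difference -0.57 (adjusted p = 0.593) and the H/W difference -0.69 (adjusted p = 0.511). Single rats weighed on the last 3 values, since LnC TCDD replicate 3 measured 5.35, LnA corn oil replicate 1 measured 8.59 and H/W TCDD replicate 2 measured 5.38. Without these rats the difference was -0.31 in H/W, -0.20 in LnA and -0.59 in LnC. LnC TCDD replicate 3 was also the lowest of its group for Hacl1 and Ehhadh, and H/W TCDD replicate 2 for Ehhadh. The dimmer probe set lay between 3.07 and 4.58 in all groups at 19 h except L-E corn oil, where it measured 5.43, 4.78, 4.75 and 5.03. Its TCDD minus corn oil difference was -0.01 in H/W, -0.20 in LnA, 0.08 in LnC and -0.86 in L-E (adjusted p = 0.0836), so the probe sets had opposite signs in LnC.

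Ppara itself was dim on these arrays: its signal was below the median of all 40 arrays, and 3.72% of the genes had a lower mean at 19 h. In L-E, LnC and LnA its levels at 19 h lay between 1.89 and 1.99 under both treatments. H/W corn oil rats measured 1.99, 1.94, 1.88 and 1.93 and the TCDD rats 2.62, 2.72, 2.27 and 1.95. The H/W groups overlapped in TCDD replicate 4, and the difference was 0.45 (SE 0.16, adjusted p = 0.304). At 3 h the L-E TCDD rats measured 1.91, 1.93, 2.35 and 2.24 and the H/W TCDD rats 1.92, 1.95, 2.47 and 2.76. Rats of both strains thus lay above the corn oil levels of 19 h, up to 2.35 in L-E and 2.76 in H/W. At this signal a change in the receptor's mRNA may not be detectable with this probe set.

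The counts of members called are set here beside the shares of all 10411 genes called. Because the members were chosen with earlier results of these data known, the counts describe them and are no independent test of the pathway. In L-E, 0 of 8 members were called, while 0.941% of genes were called higher and 1.11% lower. In LnC it was also 0 of 8, against 0.644% higher and 0.49% lower. The LnA rats had 1 of 8 higher and 1 of 8 lower against 0.73% and 0.355%. The H/W rats had 0 higher and 1 lower against 0.317% and 0.106%. At an unadjusted p under 0.05, L-E rats had 5 of 8 members beside 18.9% of all genes, and LnC rats 5 beside 14.9%. For LnA rats the count was 4 beside 14.2%, and for H/W rats 5 beside 12.1%. The members whose TCDD and corn oil rats did not overlap were 0 higher and 3 lower of 8 in L-E (7.31% and 5.95% of all genes), 2 higher and 2 lower in LnC (5.35% and 4.55%), 1 higher and 4 lower in LnA (4.82% and 4.08%), and 2 higher and 1 lower in H/W (3.28% and 4.79%). The median difference of the 8 members was -0.09 in H/W, -0.29 in LnA, -0.13 in LnC and -0.32 in L-E, and the median of all genes lay between -0.04 and 0.01.

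The members' differences had the same sign in all 4 strains/lines for 7 of the 8 genes, with Pex11a taken from its brighter probe set. The mean of the 4 within-strain differences was therefore also estimated in a single fit of 32 arrays. This comparison was added after the values were known. Hacl1 fell by 1.58 on the log2 scale (SE 0.17, adjusted p = 4.43e-08), a 2.98-fold lower level, and Phyh rose by 0.75 (SE 0.08, adjusted p = 6.05e-08), a 1.68-fold higher level. Ehhadh fell by 1.14 (SE 0.14, adjusted p = 7.07e-07) and Pex11a by 0.87 (SE 0.18, adjusted p = 0.000880). Acox2 rose by 0.57 (SE 0.11, adjusted p = 0.000435) and Hsd17b4 fell by 0.28 (SE 0.06, adjusted p = 0.000993). Cat (-0.13, adjusted p = 0.101) and Ppara (0.12, adjusted p = 0.0590) did not pass. The count was 2 of 8 higher and 4 of 8 lower, where 7.48% of all genes were called higher and 6.37% lower.

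**Figure D2:**
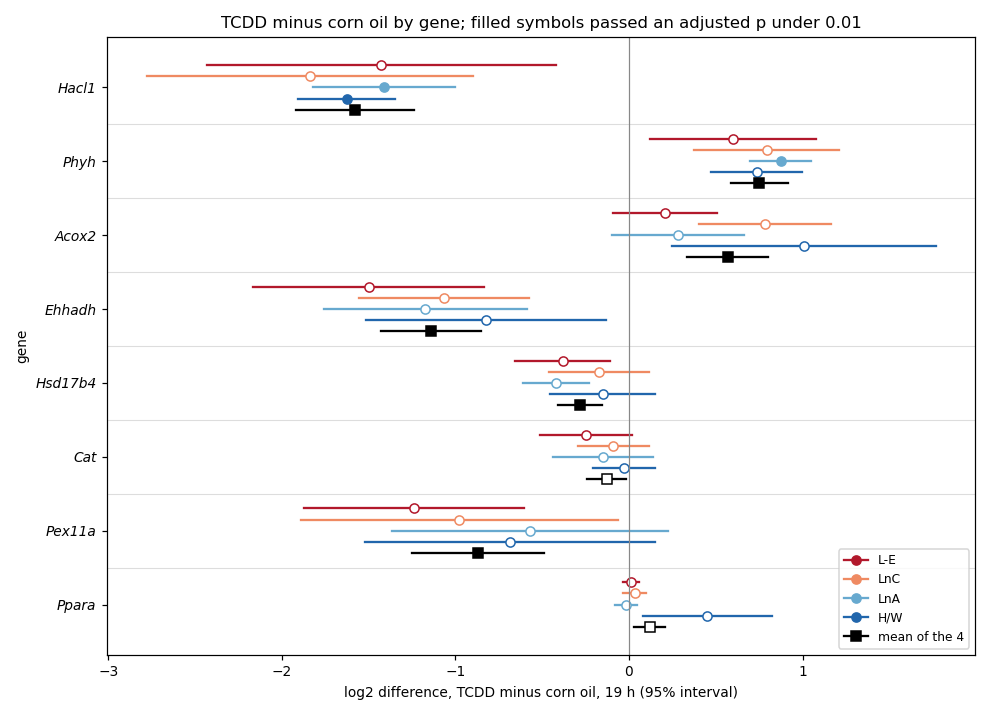
TCDD minus corn oil log2 difference at 19 h (horizontal axis) with its 95% interval for 8 genes (vertical axis), by strain or line and as the mean of the 4. Filled symbols passed an adjusted p under 0.01: Hacl1 in LnA and H/W, Phyh in LnA, and 6 genes for the mean.

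In that fit the shared Acaa1b and Acaa1a probe set rose by 0.61 (SE 0.06, adjusted p = 3.85e-08). For Pex11a the brighter probe set decided the call, since the dimmer probe set had a mean difference of -0.25 (adjusted p = 0.179), and averaging both gave -0.56. With scan day as a block the mean differences of the 6 called genes were called too (adjusted p at most 0.00143), and also with the rats paired by replicate number within each strain/line (adjusted p at most 0.00192). Fluidics station was not fitted as a block for this mean. All L-E TCDD arrays at 19 h were on station 2 and all L-E corn oil arrays on station 1. In LnC and LnA, 3 TCDD arrays each were on station 2 and all corn oil arrays on station 1, and in H/W 1 corn oil array was on station 2. The part of station in these mean differences was not tested.

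Whether the sensitive and resistant rats differed in these responses was tested directly. The difference between the collectives, sensitive minus resistant, was -0.12 for Hacl1 (95% interval -0.80 to 0.56), -0.11 for Phyh (-0.44 to 0.22) and -0.28 for Ehhadh (-0.86 to 0.30). None of the 8 members was called by limma, with 1 at an unadjusted p under 0.05, and 0.0961% of all genes were called. That gene was Ppara, at -0.20 (adjusted p = 0.581). Between L-E and H/W 0 of 8 were called, with 2 at an unadjusted p under 0.05 (0.0384% of all genes called), namely Ppara at -0.44 (adjusted p = 0.435) and Acox2 at -0.80 (adjusted p = 0.512, and -0.46 without H/W corn oil replicate 3). Between LnC and LnA, lines bred from a common cross, 0 of 8 were called and 0 had an unadjusted p under 0.05 (0.0768% of all genes called). The shares of all genes in this paragraph are those called at an adjusted p under 0.01. Shares at an unadjusted p under 0.05 are not given, so the counts at that level have no background beside them. The interval for Hacl1 reached -0.80 on the log2 scale, so equal responses were not shown.

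Without TCDD, Ehhadh differed between strains/lines. The mean of the 4 corn oil rats was 13.01 in L-E, 12.25 in H/W, 11.92 in LnA and 11.44 in LnC. LnC lay below L-E by a difference of -1.57 (SE 0.23, adjusted p = 0.00158), the call in 1 of 8 members where 2.41% of all genes were called. The neighbours in that order did not pass the threshold (L-E minus H/W 0.76, adjusted p = 0.114; LnA minus H/W -0.33, adjusted p = 0.575; LnC minus LnA -0.49, adjusted p = 0.547). The dimmer Pex11a probe set was also lower in LnC than in L-E corn oil rats, by a difference of -1.31 (adjusted p = 0.00589), whereas the brighter had a difference of -0.31 (adjusted p = 0.459). The LnA and LnC arrays shared a scan day on which no L-E or H/W array was run, so in LnC against L-E the line and the day cannot be told apart. The other corn oil comparisons called 0 of 8 members: L-E minus H/W (0.999% of all genes called), LnC minus LnA (0.394%) and LnA minus H/W (1.9%). At an unadjusted p under 0.05 there were 3, 0 and 1 members, in the same order. The share of all genes at that unadjusted level is not given here, so these 3 counts have no background beside them.

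At 3 h after TCDD, Hacl1 measured 10.72, 11.25, 11.20 and 11.32 in H/W rats and 9.11, 9.37, 10.19 and 10.12 in L-E rats, without overlap. These H/W levels were above those of every rat at 19 h. L-E minus H/W was -1.42 (SE 0.28, adjusted p = 0.0287), the largest of the members' differences at 3 h. Of the 8 members 0 were called, where 2.18% of all genes were called. At an unadjusted p under 0.05 there were 4 members, and the share of all genes at that level is not given here. With no corn oil rats at 3 h, a strain difference and a response to TCDD cannot be told apart. Phyh at 3 h measured 12.71, 12.66, 12.99 and 12.94 in H/W and 12.73, 12.55, 12.76 and 12.46 in L-E, within the range of the corn oil rats at 19 h.

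Between 3 h and 19 h after TCDD, H/W Hacl1 fell by 2.86 on the log2 scale (SE 0.14, adjusted p = 7.96e-05) and H/W Phyh rose by 0.73 (SE 0.08, adjusted p = 0.00217), 2 of 8 members where 5.15% of all genes were called. In L-E Phyh rose by 0.82 (SE 0.11, adjusted p = 0.00564), 1 of 8 where 4.01% of all genes were called, and Hacl1 had a difference of -1.57 (SE 0.45, adjusted p = 0.0778). The L-E Phyh call was lost on leaving out any of 7 single rats (adjusted p up to 0.0213). Ehhadh did not pass in either strain (-0.10 in L-E and 0.34 in H/W). The 3 h arrays had a scan day to themselves and no matching vehicle, so time, scan day and the rats' own daily rhythm cannot be told apart.

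Of 41 other peroxisomal oxidation genes listed, 31 were measured, and 4 of these passed within a strain/line. In L-E, 2 of 31 were called higher and 0 lower, beside 0.941% and 1.11% of all genes: Nudt19, which hydrolyses CoA, rose by 0.73 (adjusted p = 0.00788), and Mlycd, the malonyl-CoA decarboxylase, by 0.58 (adjusted p = 0.00441). The LnC call, 1 of 31 higher beside 0.644% of all genes, was Eci2, an enoyl-CoA isomerase, which rose by 0.63 (adjusted p = 0.00652). The LnA call, 1 of 31 lower beside 0.355%, was Lonp2, the peroxisomal Lon protease, which fell by 0.80 (adjusted p = 0.00390), and in H/W 0 of 31 were called, with 11 at an unadjusted p under 0.05. At that unadjusted level the list had 14 of 31 in L-E, 11 in LnC and 16 in LnA, where 18.9%, 14.9%, 14.2% and, for H/W, 12.1% of all genes had such a p.

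In the mean over the 4 strains/lines, 5 of the 31 were higher and 8 lower at an adjusted p under 0.01, against 7.48% and 6.37% of all genes, with a median of -0.10. Examples chosen after their values were seen are Eci2 (0.59) and Mlycd (0.47), which rose, and Lonp2 (-0.77), Abcd3, a transporter of acyl-CoAs into the peroxisome (-0.62), and Baat, which conjugates bile acids (-0.33), which fell. The genes of this list thus went both ways, as Phyh and Acox2 did beside Hacl1 and Ehhadh.

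The 8 measured peroxins, the proteins that import enzymes into and assemble peroxisomes, had 0 calls in each strain/line and medians between 0.04 and 0.14. At an unadjusted p under 0.05 they had 0 to 2, where 12.1% to 18.9% of all genes had such a p. The mean over the strains/lines called 1 of 8 higher, Pex14, at 0.28, beside 7.48% of all genes. Of 31 measured PPARA partners and targets outside the peroxisome, the call within a strain/line was Rxrg, a retinoid X receptor, which rose by 1.22 in LnC (adjusted p = 0.00790). That was 1 of 31 higher beside 0.644% of all genes, with 0 calls in the others. At an unadjusted p under 0.05 the list had 4 to 8 of 31, again where 12.1% to 18.9% of all genes had such a p. In the mean over the strains/lines 4 of 31 were higher and 3 lower, beside 7.48% and 6.37% of all genes. Again chosen after their values were seen, Pdk4, the kinase that shuts off pyruvate dehydrogenase, rose by 1.28 (adjusted p = 0.000222), whereas Angptl4, an inhibitor of lipoprotein lipase, fell by 1.73 (adjusted p = 0.00230) and Acot2, a mitochondrial thioesterase, by 0.89 (adjusted p = 0.000526). In the same fit 6 of the 33 cell type markers passed, 2 higher and 4 lower, beside the 7.48% and 6.37% of all genes. They were the hepatocyte markers Apoa1 (0.26), Ttr (-0.09) and Cps1 (-0.29), the stellate marker Lrat (0.61), the bile duct marker Epcam (-0.25) and the endothelial marker Kdr (-0.20), and the median of the 6 stellate markers was 0.12. The lists were written with earlier results of these data known.

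**Figure D3:**
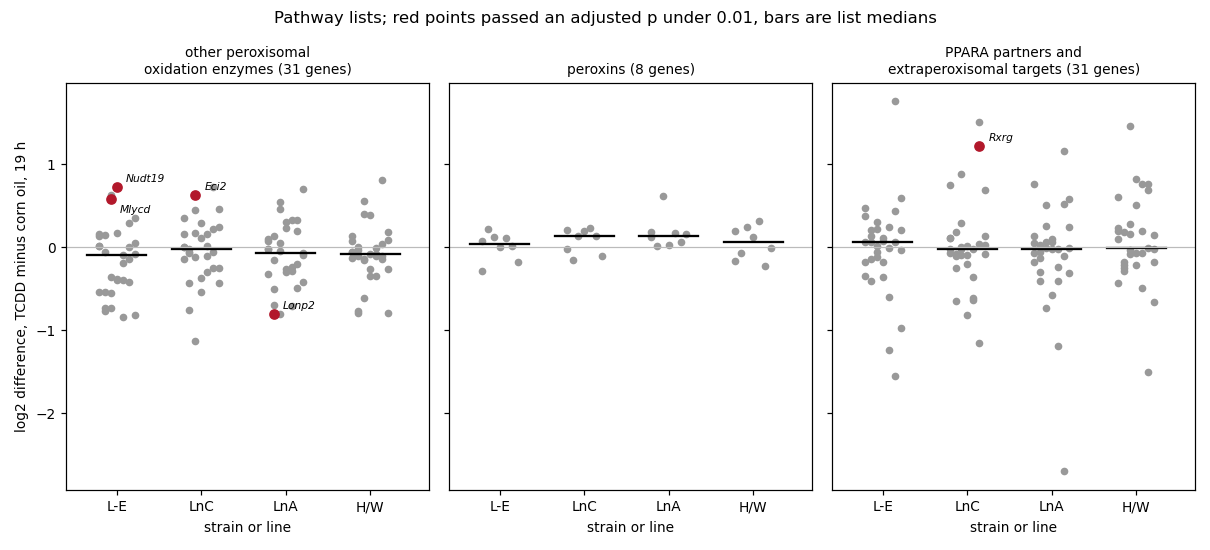
TCDD minus corn oil log2 difference at 19 h (vertical axis) of each measured gene of 3 lists, by strain or line (horizontal axis). Red points passed an adjusted p under 0.01 and are named, and bars mark list medians, which lie between -0.10 and 0.14.

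Across the 10 group means, which share strain, scan day and array scale, the members did not follow a common pattern. Ehhadh ran most closely with Hsd17b4 (Pearson's r = 0.84) and Phyh ran opposite to Pex11a (r = -0.80) and Hacl1 (r = -0.64). Genes whose group means spanned at least 1 on the log2 scale were searched, 1442 for Hacl1, Phyh and Pex11a and 1443 for Ppara. The 3 highest r over the 10 group means were picked from that many genes and were not tested. Most like Hacl1 were Egf, Ivns1abp and Btg1 (r = 0.96, 0.95 and 0.95), and most like Phyh were Tbl1xr1, Rnd2 and Mlec (r = 0.94, 0.94 and 0.93). Those most like Pex11a were Plekhb1, Glud1 and Daam1 (r = 0.95, 0.93 and 0.92). For Ppara, whose group means spanned 0.48, they were Bud23, Agxt2 and Tra2a (r = 0.90, 0.79 and 0.79).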

How the data were processed

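The log2 signals per probe set were used as deposited. Per the submitters' processing notes, the authors ran affy 1.10.0 and GCRMA 2.4.1 under R 2.3.1, whereas the paper's methods name RMA with a different probe map, a step not repeated here. GCRMA can draw probe sets near background together, and its effect on dim genes such as Ppara was not tested. Of 15923 probe sets, 57 were controls, 12783 carried 1 symbol, 312 several and 2771 none. A gene was represented by its probe set with the highest mean at 19 h, without a filter on low values. Scanner records gave scan day and fluidics station.

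Groups followed the sample labels. Each comparison was fitted with limma 3.58.1 in R 4.3.3, with Benjamini-Hochberg adjustment over 10411 genes and a threshold of 0.01, in 8 arrays per strain/line, 32 or 16 for differences of responses, and 16 for corn oil rats; the script was tested on simulated data. Intervals are at 95%. The number of arrays, 4 rats a group, limits the precision. The correlations of deviations between rats of the same replicate number were all over 0.1 in LnA alone (0.12 to 0.16). By that rule the paired fit is given beside the LnA results for Hacl1, Phyh, Ehhadh and Hsd17b4. The correlations were 0.07 to 0.29 in L-E, -0.26 to 0.09 in LnC and 0.01 to 0.15 in H/W. Named genes were all members, list genes called in at least 1 strain/line (at most 10 a list), the 3 genes most like Hacl1, Phyh, Pex11a and Ppara, and the dosing check genes. List and marker genes named for the mean over the strains/lines fall outside this rule and were chosen after their values were seen. The members and lists were chosen with earlier results of these data known.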

Additional observations from a re-analysis of the deposited data

Results flagged for a closer look

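Within groups of 4 rats, a rat was singled out where its gap to the nearest other rat took an unusually large share of the group's range (Dixon's ratio past its 95% critical value). Of 80 groups of the 8 members, 5 were so marked, and chance marks about 1 in 20 groups. Hsd17b4 was low in LnA TCDD replicate 4 (ratio 0.870), and Cat was low in L-E corn oil replicate 2 (ratio 0.835). Pex11a was low in H/W TCDD replicate 4 at 3 h (ratio 0.863), high in L-E corn oil replicate 2 (ratio 0.866) and low in H/W TCDD replicate 2 at 19 h (ratio 0.849).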

How the results depend on the processing

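Of the 49 single-gene differences with an unadjusted p under 0.05, recomputed under 1046 alternatives, 0 changed sign, 22 fell short of 0.01 and 16 came to pass it. The other 71 differences changed sign in 76 of 1403 alternatives. The mean response over the strains/lines, an added comparison, kept 6 or 7 members called under all of its alternatives, the seventh being Ppara with array weights or without H/W TCDD replicate 4. Those alternatives held no block for fluidics station.

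The number of members called moved as follows. With the lowest 40% of genes left out it was 1 in L-E and 2 in L-E between 3 h and 19 h. A single fit over the 8 groups gave 4 in H/W, 1 in LnA, 2 in LnC and 2 in L-E. A threshold of 0.05 gave 2 in L-E, 2 in LnC, 3 in LnA, 2 in H/W, 1 at 3 h and 2 in L-E over time. In the same order, 676, 378, 334, 154, 695 and 1034 of all measured genes were called at 0.05. In LnA, quantile normalization gave 1 member called and median centring 1. Also in LnA, the replicate block (the paired fit) gave 0 and fluidics station as a block 0. In H/W array weights gave 2, scan day as a block 0 and station as a block 2. Array weights gave 2 in LnC against L-E corn oil rats. Leaving out single rats gave 1 to 2 in LnA, 1 to 2 in H/W and 0 to 1 in L-E between 3 h and 19 h. The replicate block changed no other count of members. The causes were not tested. Under the alternatives other than the threshold of 0.05, the share of all genes called is not given here. Those counts of members thus have no background beside them.

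The station alternatives were chosen after seeing the data. The precision is limited by the 4 rats a group, and the probe set of Ppara and the second of Pex11a were dim.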
